A study of Caenorhabditis elegans with 2 samples.

Results

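The Hox genes of C. elegans were examined for chromatin bound by ZTF-4, a zinc finger protein, in whole larvae at the L3 stage. The genes were lin-39, ceh-13, mab-5, egl-5, php-3 and nob-1, that is 6 of the 19985 protein-coding genes of the annotation, and all 6 lie on chromosome III, which holds 2640. They were taken as a named list, and every deposited region with its summit inside one of them or within 10 kb of it was counted as a member. Sequence between neighbouring Hox genes was described as well. The animals were of strain OP322, unc-119(ed3) III with the integrated transgene wgIs322, which carries ZTF-4 fused to eGFP, and the material was whole animals of mixed sex. There was 1 group of 2 biological replicates, with no second genotype, stage or treatment. The promoter that drives the transgene and the strain of the control library are not given in the sources used here. A weak region can be background, or can come from low occupancy in many cells or from occupancy in few. In whole larvae these cannot be told apart.

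Hox genes encode homeodomain transcription factors that give cells their identity along the head to tail axis. In C. elegans they form a dispersed set with lin-39 and ceh-13 as one pair, mab-5 and egl-5 as another, and php-3 and nob-1 farther along the chromosome. The gene ceh-13 is the labial orthologue, lin-39 acts in the midbody and in the vulval precursor cells, mab-5 acts in the posterior body, and egl-5, php-3 and nob-1 are the genes related to Abdominal-B. Polycomb-like and Trithorax-like chromatin proteins keep Hox genes silent or active outside and inside their domains.

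Regions were recorded in 4 lists in ce11 coordinates, in which each region has a summit and the authors' signal value. Both replicates called jointly (the pooled list) gave 30000 candidate regions, 5036 of them on III. The replicate 1 list had 29249 (4759 on III) and the replicate 2 list 30000 (4949 on III). The candidate lists hold weak regions along with strong ones. The strictest list, thresholded on the irreproducible discovery rate (IDR), held 704 peaks with 123 on III and a lowest signal of 35.9. Read numbers were not used here, so depth is unknown. Wilson 95% intervals cover counting error over regions only, or over genes for the share of Hox genes with an IDR peak. No p-value was computed.

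The sequences below show candidate summits near the genes. For lin-39, ceh-13, mab-5 and egl-5 these are summits found in the pooled list and in both replicates: 1 each for lin-39, ceh-13 and egl-5, and for mab-5 the 4 with the highest pooled signal. A weaker mab-5 summit, at 7779905, is shown because its window holds TGATNNAT. For nob-1 no summit had that support, and its highest pooled signal is shown. The highest-ranked php-3 summit lay in the 3′ UTR of nob-1 and is not printed. Each window reaches 50 bp to either side of a pooled summit and reads 5′ to 3′ on the plus strand of ce11. Capitals mark TAATTA, the core of many homeodomain sites, or TGATNNAT, a form of the Pbx and Hox composite site, on either strand. The word GACGCA was searched for as well and occurs in none of these windows. A match of letters is a description and not a binding site.

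lin-39, 289 bp upstream, chrIII:7536871-7536971: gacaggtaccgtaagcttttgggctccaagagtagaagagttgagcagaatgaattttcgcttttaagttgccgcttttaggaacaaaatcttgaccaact
ceh-13, 1865 bp upstream, chrIII:7553745-7553845: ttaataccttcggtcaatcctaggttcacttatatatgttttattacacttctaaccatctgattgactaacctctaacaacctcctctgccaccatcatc
mab-5 window, 1089 bp upstream of snu-23, chrIII:7771159-7771259: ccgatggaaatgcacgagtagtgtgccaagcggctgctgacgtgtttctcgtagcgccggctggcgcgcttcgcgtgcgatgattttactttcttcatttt
mab-5 window, 67 bp upstream of snu-23, chrIII:7770137-7770237: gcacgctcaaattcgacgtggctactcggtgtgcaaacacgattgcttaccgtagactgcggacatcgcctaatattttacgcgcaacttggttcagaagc
mab-5 window, at bath-15, chrIII:7776222-7776322: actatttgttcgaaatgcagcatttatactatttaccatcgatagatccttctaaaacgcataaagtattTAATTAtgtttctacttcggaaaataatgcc
mab-5 intron, chrIII:7779855-7779955: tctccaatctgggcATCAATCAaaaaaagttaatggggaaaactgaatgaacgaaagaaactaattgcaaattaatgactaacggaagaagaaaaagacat
mab-5 intron, chrIII:7781058-7781158: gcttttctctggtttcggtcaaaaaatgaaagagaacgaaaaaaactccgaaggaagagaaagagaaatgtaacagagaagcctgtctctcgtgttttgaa
egl-5, downstream, chrIII:7818141-7818241: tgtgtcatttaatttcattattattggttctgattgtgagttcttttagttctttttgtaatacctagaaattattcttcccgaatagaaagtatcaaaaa
nob-1, upstream, chrIII:12088428-12088528: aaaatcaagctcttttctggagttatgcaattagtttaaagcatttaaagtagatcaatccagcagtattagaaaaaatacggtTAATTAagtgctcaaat

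None of the 6 Hox genes had an IDR peak inside the gene or within 10 kb. The count was 0 of 6 genes, and such a small set allows a share of up to 39.0% (Wilson upper limit). Windows of the same length centred on the protein-coding genes of III held at least 1 IDR summit in 21.2% of cases for the length of the lin-39 window. That share was 17.9% for ceh-13, 20.6% for mab-5, 18.1% for egl-5, 18.6% for php-3 and 20.5% for nob-1. Most windows on III had none either, so 0 of 6 lies near the background and is not a result about Hox genes in itself. Windows of neighbouring genes share summits, and those of php-3 and nob-1 overlap for most of their length, so the 6 are not independent.

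The nearest IDR peaks lay at other genes. For lin-39 the distance was 159 kb, to a summit at 7369777 with signal 41.4 whose nearest 5′ end was that of T20B12.4. For ceh-13 it was 180.0 kb and for mab-5 38.7 kb, both to the summit at 7738089 in a 3′ UTR (signal 43.1). That summit lay inside both ncl-1, a gene that limits nucleolar size, and WBGene00022661, whose 5′ end was nearest at 1702 bp. For egl-5 the distance was 37.5 kb, to a summit 450 bp upstream of the ribosomal protein gene rpl-35 (7854684, signal 124). For php-3 it was 52.8 kb and for nob-1 56.3 kb, to a summit in an exon of brp-1 (12021455, signal 41.4). The median over genes of III was 41.7 kb. Distances at least as long as those of lin-39 and ceh-13 were found for 11.1% and 8.30% of genes of III, and for the other 4 Hox genes the shares lay between 41.1% and 53.4%. The whole stretch from 10 kb before lin-39 to 10 kb after egl-5 covers 309 kb and 47 protein-coding genes. It held 1 IDR peak, that at 7738089, against 123 over the 13783801 bp of III. Whether this departs from the rate of III was not tested.

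Candidate regions did occur near every Hox gene, and most were weak. Windows of the same lengths on III held no pooled summit in only 4.77% to 6.67% of cases. Presence alone is thus near the background and is not a result about Hox genes. The 6 windows together held 57 distinct pooled summits, 51 replicate 1 summits and 51 replicate 2 summits. Pooled signals ran between 5.87 and 19.0 with a median of 9.16, against a median of 9.59 over all pooled regions of III. The replicate 1 median was 3.21 in the Hox windows and 3.65 on III, and the replicate 2 median was 8.06 in the Hox windows and 7.87 on III. The highest-ranked Hox summit stood at 3524 in the pooled list, far below the IDR peaks, which are ranks up to 704 of that list.

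**Figure D1:**
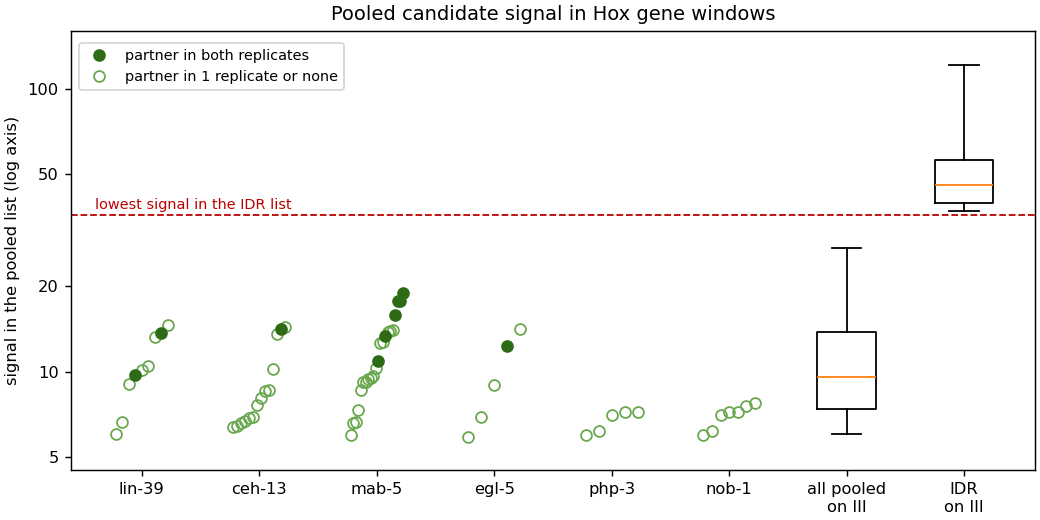
Signal of each pooled summit in the window of each Hox gene (log axis), beside boxes for all pooled regions and for the IDR peaks of III (line, median; box, quartiles; whiskers, 5th and 95th percentiles). Filled points had a partner in both replicates; all points lie between 5.87 and 19.0, below the lowest IDR signal of 35.9, and php-3 and nob-1 share most of their points.

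Few of these candidates passed a q-value of 0.05 by the authors' own values, a limit chosen after the data were seen. In the pooled list 3 of 57 did (5.26%, interval 1.81 to 14.4), against 17.7% of the regions of III, and all 3 lay in the mab-5 window. In replicate 1 it was 9 of 51 (17.6%, interval 9.57 to 30.3), against 34.1% of III. Of these, 6 belonged to mab-5 and 1 each to lin-39, ceh-13 and egl-5. In replicate 2 it was 6 of 51 (11.8%, interval 5.51 to 23.4), against 17.1% of III, with 5 at mab-5 and 1 at ceh-13. The interval of the Hox share lay below the III share in the pooled and replicate 1 lists and included it in replicate 2. Regions overlap in places and 22 of the 57 pooled summits lay in the mab-5 window. The summits are therefore not independent, and this comparison is not a test. No summit of php-3 or nob-1 passed in any list.

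The number of candidates per window differed between the genes. The mab-5 window of 26620 bp held 22 pooled summits, 15 in replicate 1 and 17 in replicate 2, against a median of 9 in windows of III in each list. Among the 2640 windows of III, 143 (5.42%) held at least as many pooled summits, 448 at least as many replicate 1 summits and 383 (14.5%) at least as many replicate 2 summits. The ceh-13 window held 14 pooled, 10 replicate 1 and 13 replicate 2 summits, against a median of 7 in each list, and 18.8%, 31.3% and 20.7% of windows held at least as many. These windows were on the high side of III in all 3 lists, and within the range of many other genes.

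The lin-39 window held 9 pooled summits and 11 in each replicate, against a median of 9 on III. The egl-5 window held 5 pooled, 7 replicate 1 and 3 replicate 2 summits, against medians of 7, 7 and 8. At php-3 the counts were 5, 7 and 4 against a median of 8, and at nob-1 7, 8 and 7 against 9. Windows with at least as many pooled summits made up 55.5% of III for lin-39, 71.1% for egl-5, 72.2% for php-3 and 64.8% for nob-1. The genes related to Abdominal-B were thus at or below the median in every list. Regions of a list overlap in places, and with overlapping regions merged the pooled counts were 7 for lin-39, 12 for ceh-13, 16 for mab-5, 5 for egl-5, 5 for php-3 and 7 for nob-1.

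**Figure D2:**
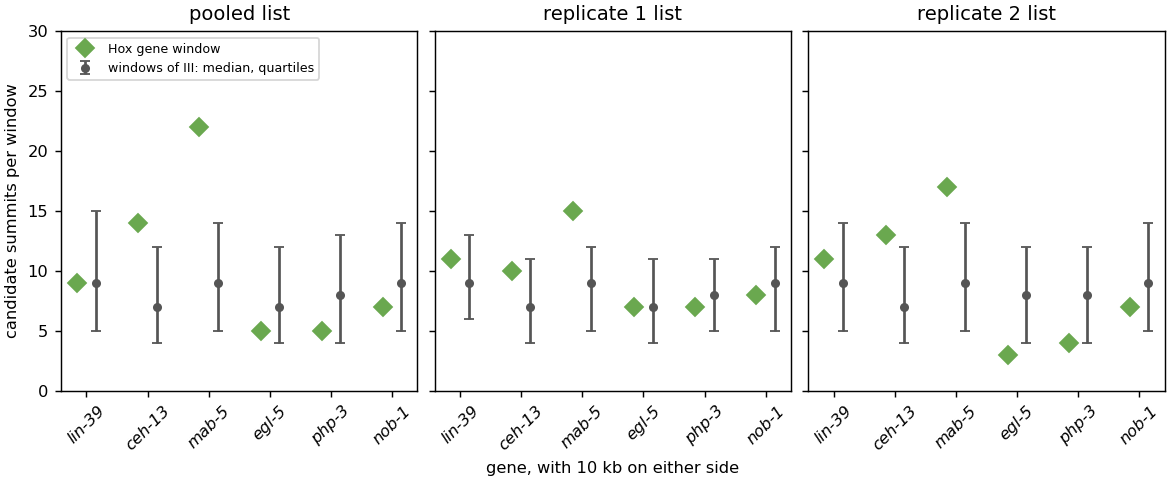
Candidate summits in the window of each Hox gene (diamonds) and in windows of the same length centred on 2640 protein-coding genes of III (point, median; bars, quartiles), for the 3 candidate lists. The mab-5 window holds 22, 15 and 17 summits and lies above the upper quartile in each list, and egl-5 holds 5, 7 and 3.

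The strongest summit of each window was below the median of III. For mab-5 it had a pooled signal of 19.0, against a median window maximum of 20.2 on III. For lin-39 it was 14.6 against 20.6, for ceh-13 14.4 against 18.7, and for egl-5 14.1 against 18.8. For php-3 it was 7.22 against 18.9 and for nob-1 7.74 against 20.2. Maxima at least as high as those of php-3 and nob-1 were found in 91.4% and 91.7% of windows. Each of the 6 genes was also below the median of window maxima in each replicate list, mab-5 least so, with 52.8% of windows at least as strong in replicate 1 and 54.5% in replicate 2.

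Of the 57 pooled summits, 10 had a summit within 100 bp in both replicate lists (17.5%, interval 9.82 to 29.4), against 21.4% of the pooled regions of III. Over regions of III in the same range of signal the share was 15.3% (interval 14.2 to 16.4). A further 27 Hox summits had a partner in replicate 2 alone, 9 in replicate 1 alone and 11 in neither. Of the 5036 pooled regions of III these were 2329, 807 and 823, so the lean to replicate 2 was found over III as well. The pooled list was called on the same alignments, so a partner is not an independent observation of the pooled region. The 10 were 6 of 22 at mab-5, 2 of 9 at lin-39, 1 of 14 at ceh-13 and 1 of 5 at egl-5, with 0 of 5 at php-3 and 0 of 7 at nob-1.

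At lin-39, whose product guides vulval precursor cells and migrating Q neuroblasts, both summits found in each replicate flanked the 5′ end. One at 7536921 lay 289 bp upstream, with signal 13.7 at rank 7362 in the pooled list, 3.57 at rank 14844 in replicate 1 and 8.85 at rank 11756 in replicate 2. The other, at 7535511 in an intron, lay 1121 bp downstream of the 5′ end and ranked 14442 in the pooled list, 14298 in replicate 1 and 9111 in replicate 2. The upstream summit stood within the leading 24.5% of the pooled list and the leading 50.8% of the replicate 1 list. The strongest pooled summit of the window lay elsewhere, at 7532166 in an intron that also holds the non-coding gene C07H6.18. It had signal 14.6 and a partner in replicate 2 alone (signal 12.3, rank 5757). An intronic summit at 7530673 had the next highest signal after that and the upstream summit, 13.3. In all, 5 of the 9 pooled summits lay inside lin-39.

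At ceh-13, which acts in the anterior embryo, the summit found in both replicates was 1865 bp upstream at 7553795. Its signal was 14.2 at rank 6817 in the pooled list, 2.84 at rank 20280 in replicate 1 and 10.1 at rank 8933 in replicate 2. The strongest pooled summit was at 7558474, just past the 3′ end of the gene, with signal 14.4 and a partner in replicate 2 alone (13.7, rank 4467). The third, at 7567778 (13.6), lay in the 3′ UTR of R13A5.7 with the 5′ end of ttr-32 nearest to it. Of the 14 pooled summits, 2 lay inside ceh-13, 3 in other protein-coding genes and 9 outside coding genes. The upstream summit stood higher in the replicate 2 list than in the replicate 1 list.

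The mab-5 window held 6 of the 10 summits found in both replicates, and 4 of these lay nearer to the 5′ end of snu-23 or bath-15 than to that of mab-5. The highest Hox summit, at 7771209, was 1089 bp upstream of snu-23, a spliceosomal protein gene, and 12245 bp from the 5′ end of mab-5. Its signal was 19.0 at rank 3524 in the pooled list, 7.02 at rank 4039 in replicate 1 and 14.0 at rank 4272 in replicate 2. This was the Hox summit with the best rank in the pooled list, and the replicates ranked it about alike. A second at 7770187 lay 67 bp upstream of snu-23 (pooled signal 15.8, rank 5422). The third, at 7776272, fell between the 3′ end of mab-5 and the 5′ end of bath-15, 239 bp upstream of bath-15, with pooled signal 17.8 at rank 4098. It ranked 9421 in replicate 1 and 4463 in replicate 2.

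The remaining 3 were in introns of mab-5, which directs the migration of Q neuroblast descendants and the posterior pattern of the male tail. At 7781108 the pooled signal was 17.8 at rank 4107, with 5.34 at rank 7262 in replicate 1 and 13.3 at rank 4741 in replicate 2. At 7779905 it was 13.4 at rank 7723, with ranks of 18360 in replicate 1 and 12524 in replicate 2. At 7777975, where the 5′ end of bath-15 is the nearest, it was 10.9 at rank 11556, with ranks of 22526 in replicate 1 and 12921 in replicate 2. Only the first of these stood within the leading 24.8% of each list.

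Other strong candidates of the mab-5 window differed between replicates. A summit 1347 bp upstream of mab-5, at 7784801, had signal 13.9 in the pooled list and 15.1 at rank 3562 in replicate 2, the best rank of any Hox summit in that list. Replicate 1 had no summit between 7781053 and 7786758. In replicate 1 the highest Hox signal was 7.58 at rank 3387, at 7768270 in a coding exon of ZK686.3, a gene named after its value was seen. Replicate 1 also had 7.05 at rank 4014 in the 3′ UTR of mab-5, at 7777139. In all, 8 of the 22 pooled summits lay inside mab-5, 5 in other protein-coding genes and 9 outside coding genes. The window touched 8 protein-coding genes, more than that of any other Hox gene.

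**Figure D3:**
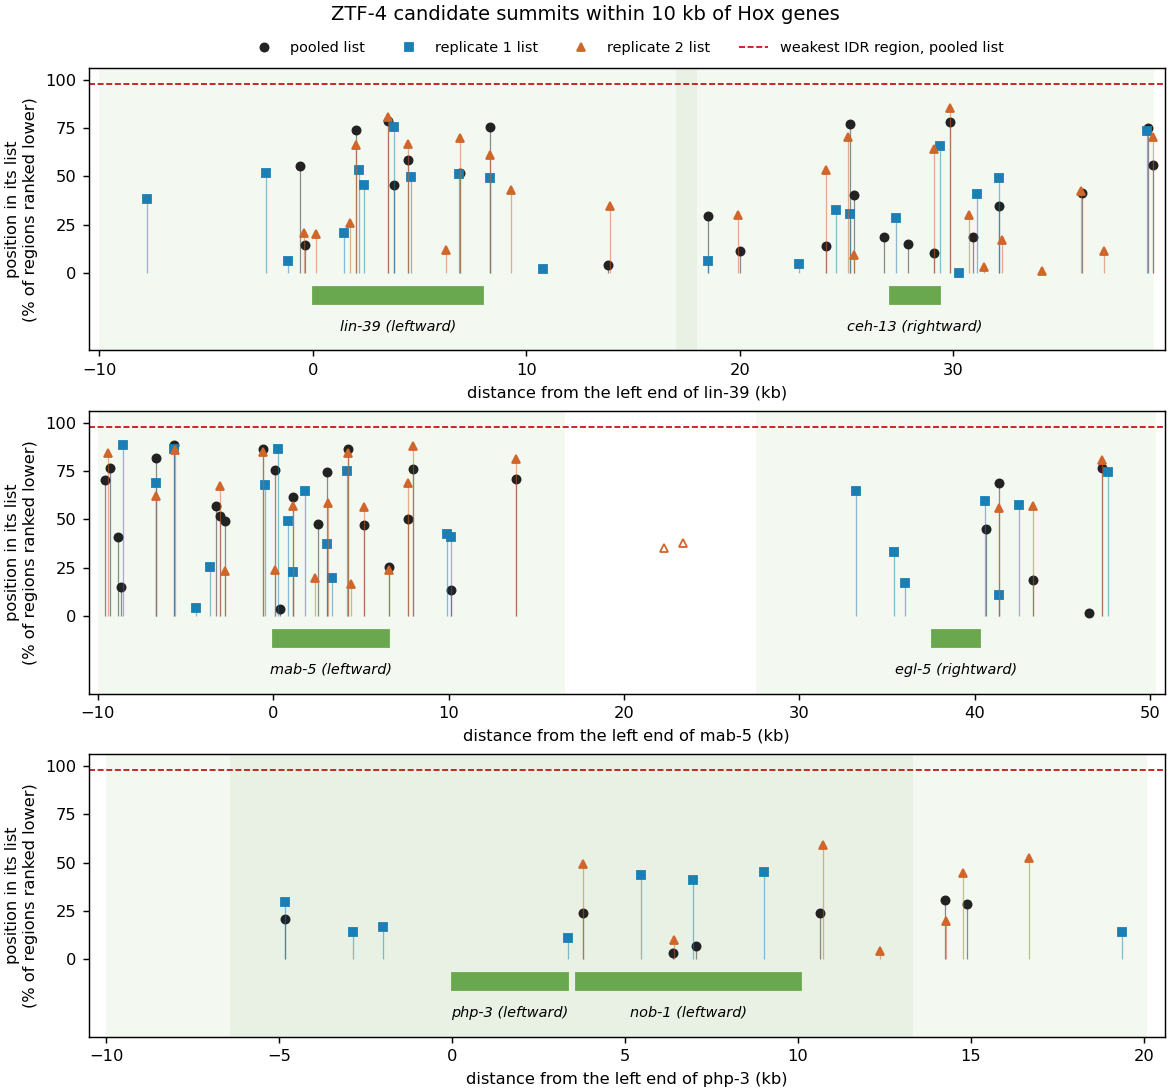
Position in its list (percent of regions ranked lower) of each candidate summit against distance from the left end of the first gene of each pair, with 10 kb on either side of each gene shaded; open symbols lie between the genes outside these windows. The dashed line is the weakest IDR region in the pooled list; all pooled Hox summits lie below it, and none of those at php-3 or nob-1 stands higher than rank 20749.

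At egl-5, which acts in tail neurons and the male tail, no pooled summit lay inside the gene or within 10 kb upstream of it. The nearest pooled summit was 3076 bp from the 5′ end and past the 3′ end, at 7817450 (signal 8.99). The summit found in both replicates followed at 7818191 (pooled signal 12.3, rank 9271), with rank 25988 in replicate 1 and 13257 in replicate 2. The strongest, at 7824072, had signal 14.1 and lay nearest to egl-45, which encodes a subunit of translation initiation factor 3. Upstream, the pooled list had no summit between 7790702 and 7817450, a gap of 26.7 kb that takes in egl-5 whole. Gaps at least as long made up 1.13% of the 5035 gaps on III, but 16.3% of the chromosome lay in them, and so did the 5′ ends of 15.7% of its genes. In replicate 1 the gap around the 5′ end was 4.57 kb and in replicate 2 it was 17970 bp. Replicate 1 thus had candidates within 10 kb upstream of egl-5, where the other lists had none: 3 summits with signals of 2.43, 2.93 and 4.44. The last of these ranked 10293, within the leading 35.2% of the replicate 1 list.

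The paralogues php-3 and nob-1, which pattern the posterior embryo, had the weakest candidates of the set. The 7 pooled summits of the nob-1 window included all 5 of php-3, and their signals ran between 5.97 and 7.74. The highest was at 12088478 upstream of nob-1 (signal 7.74, rank 20749, partner in replicate 2 alone), followed by 7.58 at 12089107. The summit nearest to php-3 was 453 bp upstream of it, in the 3′ UTR of nob-1 (12078009, signal 7.22, rank 22872). The next, at 12084851, lay 535 bp upstream of nob-1, also with signal 7.22. Another at 12069381 lay in an intron of zyg-8, a kinase gene of the doublecortin family (7.03). None had a partner in both replicates.

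**Figure D4:**
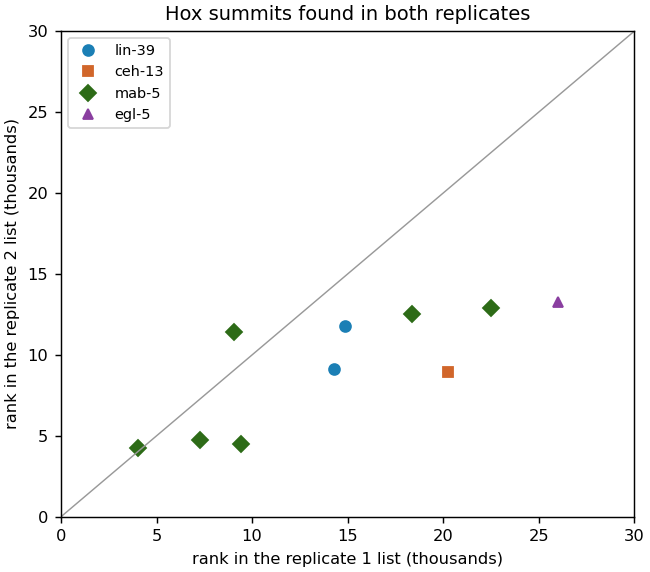
Rank in replicate 2 against rank in replicate 1 for the 10 pooled Hox summits with a summit within 100 bp in both lists (rank 1 is strongest; the line marks equal ranks). The summit at snu-23 in the mab-5 window lies nearest the origin at ranks 4039 and 4272, and the others spread to ranks of 25988 and 13257.

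Near the 5′ ends, pooled summits lay within 500 bp for 4 of the 6 genes, against 38.9% of the protein-coding genes of III. The distances were 29 bp for mab-5, 278 bp for ceh-13, 289 bp for lin-39 and 453 bp for php-3. The mab-5 summit was in the 5′ UTR with signal 7.33 and rank 22384, and that of ceh-13 had signal 6.89 and rank 24343. Of these 4 summits, that of lin-39 alone had partners in both replicates. In replicate 1 lin-39, ceh-13 and php-3 had such a summit, and in replicate 2 lin-39, mab-5 and php-3. Only lin-39 and php-3 had one in all 3 lists, and at php-3 they did not lie at the same place. Its replicate 1 summit was 2 bp upstream of the 5′ end, at 12077558. The pooled and replicate 2 summits were 453 and 446 bp upstream, at 12078009 and 12078002. The share of 38.9% over genes of III is for the pooled list, and none is given for the replicate lists.

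Between lin-39 and ceh-13, and between mab-5 and egl-5, candidates were no denser than over all sequence of III outside coding genes. The interval between lin-39 and ceh-13, whose conserved non-coding elements are known to act as enhancers, spans 7536633 to 7555659 (19.0 kb). It held 8 pooled, 6 replicate 1 and 7 replicate 2 summits, or 0.42, 0.315 and 0.368 per kb. Over III outside coding genes the densities were 0.434, 0.37 and 0.426 per kb. The interval also holds the non-coding genes C07H6.12, C07H6.16 and linc-57 and the microRNA gene cel-mir-231. Its 2 strongest pooled summits were those described near either end, 289 bp from lin-39 and 1865 bp from ceh-13. The other 6 had signals of at most 8.53.

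The interval between mab-5 and egl-5, 7783455 to 7814373, holds cyk-7, a gene needed for cytokinesis, and small non-coding genes. Its 29.0 kb outside coding genes held 4 pooled summits and 5 in each replicate, or 0.138, 0.173 and 0.173 per kb, lower than III in all 3 lists. All 4 pooled summits were within 7248 bp of mab-5. The 236 bp between php-3 and nob-1 held no pooled or replicate 2 summit and 1 replicate 1 summit (signal 2.27). No IDR peak lay in any of the 3 intervals, against 0.0167 per kb over III.

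By annotation, 29 of the 57 pooled Hox summits were intergenic (50.9%), against 34.6% of pooled summits of III. Introns held 29.8%, against 39.1% on III, and coding exons 5.26%, against 16.7%. The 3′ UTRs held 10.5%, against 6.08%, and 5′ UTRs 1.75%, against 1.87%. The windows themselves are mostly rich in sequence outside coding genes. The share of such sequence was 50.2% at lin-39 and mab-5, 67.9% at ceh-13, 75.7% at egl-5 and 46.7% at nob-1, against medians of 26.0% to 26.9% on III. The php-3 window had 24.1%. How far this makeup accounts for the places of the summits was not tested.

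The sequence at Hox summits was set beside that at other pooled summits of III. The word GACGCA occurred in 0 of 57 such Hox windows (interval up to 6.31%), against 3.61% of pooled summits of III, which lies inside that interval. It occurred in 19.5% of IDR summits of III. TGATNNAT occurred in 4 of 57 (7.02%), against 7.76% of pooled summits of III. TAATTA occurred in 6 of 57 (10.5%, interval 4.91 to 21.1), against 4.85% of pooled and 0 of 123 IDR summits of III. These words were searched on both strands and can overlap each other. Mean GC content was 33.4% in the Hox windows, 35.3% at pooled summits of III and 46.2% at IDR summits of III. Base composition alone changes how often such words occur, and its part was not tested. The window of the summit at 7771209 near snu-23, the highest Hox summit of the pooled list, had 54.5% GC. Windows of mab-5 summits ran from 19.8% to 58.4% and those of egl-5 summits from 25.7% to 46.5%.

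The gene of III whose windows were most like mab-5 in count over the 4 lists was sma-4, a Smad gene of TGF-beta signalling. With the same window length it had 0 IDR, 22 pooled, 15 replicate 1 and 18 replicate 2 summits, against 0, 22, 15 and 17 for mab-5. T04C9.2 (0, 22, 14 and 18) and F31E3.6 (1, 21, 15 and 17) followed. Likeness was the sum of absolute differences in count, over genes more than 100 kb from any Hox gene.

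Genes that act with or on Hox genes were described from 5 lists of 41 genes in all. Over all nuclear protein-coding genes, 12.9% had an IDR summit inside or within 10 kb, and 1.66% within 500 bp of the 5′ end. Among 10 Trithorax-like genes 4 had one in the window and 3 at the 5′ end. These were set-16, an MLL-like histone methyltransferase gene (signal 88.2 at 161 bp), ash-2, a subunit of its complex (62.6 at 471 bp), and lin-49, a bromodomain protein gene (36.0 at 436 bp). The fourth was lin-59, related to ASH1 (45.2 at 559 bp). The ash-2 summit was also 465 bp from the 5′ end of Y17G7B.20.

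Hox cofactors had 2 of 5 and none at a 5′ end. The Meis-like gene unc-62 had a summit inside the gene, 10524 bp from its 5′ end (signal 37.6). The Pbx-like gene ceh-20 had one 7796 bp from its 5′ end (49.2), and this lay 165 bp from the 5′ end of rfc-4, a replication factor C gene. Of 8 Polycomb-like genes 1 had an IDR summit in the window, mig-32 (38.7), with the 5′ end of rbm-34 nearer. Of 10 upstream regulators 1 did, egl-27 (42.8), 18215 bp from its 5′ end and nearest to C04A2.15. Of 9 described Hox targets none did. Lists this small give counts that 1 gene can change by a large share. With flanks of 5 kb and 20 kb the counts were 1 and 2 for Hox cofactors and 1 and 3 for Polycomb-like genes. They were 4 and 5 for Trithorax-like genes, 0 and 2 for upstream regulators and 0 with either flank for described targets. The share over all genes is given for flanks of 10 kb only. Wider windows can take in more summits at any gene, so these changes have no background beside them.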

How the data were processed

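The authors deposited narrowPeak lists of ZTF-4 ChIP-seq regions in 2 builds, of which ce11 was used. Per the inventory text deposited with each sample, lists were called per replicate and on both replicates together against a control, and IDR was run on these. Caller, aligner and IDR threshold are not given in the sources used here. The deposited signal value is the authors' enrichment measure of a region, and its scaling is not known, so signals were ranked within a list only. The deposited −log10 q-values end at a ceiling (3.15 in the pooled list, 2113 regions).

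Summits were placed on gene models of Ensembl release 115 for that assembly. Start and end of 6 of 6 genes were the same in RefSeq, whose sequence was used. Coordinates are 1-based. Windows reached 10 kb past each gene, and reference windows of that length were centred on genes of III. Python 3.11.15 with pandas 2.3.3, numpy 2.4.6, scipy 1.17.1 and matplotlib 3.10.9 was used, and the counting was tested on simulated data. Named were the 6 genes, genes at the 3 strongest pooled summits of each, up to 4 genes per pathway list and the 3 windows most like mab-5. Genes at the nearest IDR peaks, genes inside the intervals and ZK686.3 were named outside this rule, after their values were seen. Genes and lists were chosen with earlier results of these data known. Merged regions, the q limit, gaps around 5′ ends, the signal range, annotation classes and GC content were added after seeing the data.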

Additional observations from a re-analysis of the deposited data

How the results depend on the processing

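No IDR summit lay in a Hox window with flanks of 5 kb or 20 kb, in the 352 strongest IDR peaks or by any overlap. The shares of windows of III with an IDR summit are given for flanks of 10 kb only. The 57 pooled summits became 26 among the 15000 strongest regions and ranged between 42 and 71 under the other settings, with 51 in each replicate's own list. Partners in both replicates, 10 within 100 bp, were 5 within 50 bp, 15 within 200 bp and 23 by any overlap of regions. The number of such pairs thus depends on the matching rule. The mab-5 share of windows with at least as many summits, 5.42%, ranged between 2.63% (windows at least as rich in intergenic sequence) and 27.2% (flanks of 20 kb). It was 9.34% among genes within 2 Mb and 9.24% with regions merged. For ceh-13 (18.8%) the range was 5.17% to 34.8%, for lin-39 (55.5%) 37.7% to 63.4% and for nob-1 (64.8%) 47.7% to 70.8%. For egl-5 (71.1%) it was 52.2% to 85.4% and for php-3 (72.2%) 55.5% to 79.6%. The cause was not tested. Within 100 bp TGATNNAT was in 21.1% of Hox windows, against 15.2% on III, so that the Hox share was the higher one, while within 50 bp it was the lower one (7.02% against 7.76%). Within 100 bp TAATTA was in 21.1%, against 9.65%. GACGCA was in 2 of 57, against 6.95%. Of 91 alternative values over 26 results, 60 stayed within the limits set. These limits were not equally tight. The TAATTA share counted as the same at 10.5% and 21.1%. The nob-1 share of windows counted as moved between 64.8% and 58.5% (replicate 1 list alone). The number within the limits is therefore not a measure of robustness. IDR cannot be rerun without a replicate. No paired analysis was possible because there was 1 group. Read depth is unknown.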
